A study of Mus musculus with 6 samples.

Results

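Primitive endoderm genes were examined in mouse embryonic stem cells depleted of the Polycomb-like protein Pcl2, now named Mtf2. The group was a list of 9 genes, namely the transcription factors Gata4, Gata6, Sox17, Sox7 and Hnf4a, the endocytic adaptor Dab2, the endocytic receptor Cubn, the growth factor receptor Pdgfra and the transcriptional co-regulator Cited1. They were chosen by symbol, with earlier results of these data known, as were the lists of other genes below. Every probe set (a group of short probes against 1 transcript region) was used whose platform annotation named exactly 1 gene, and that gene among the 9. This gave 23 probe sets of the 34945 that named 1 gene, in a table of 45101. Dab2 and Hnf4a had 4 probe sets each, Gata6 and Pdgfra 3 each, Gata4, Sox17, Sox7 and Cubn 2 each, and Cited1 1. The reference annotation places Gata4 and Sox7 on chromosome 14, Gata6 on 18, Sox17 on 1, Hnf4a and Cubn on 2, Dab2 on 15, Pdgfra on 5 and Cited1 on X.

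The Pcl2 shRNA group held 3 arrays of R1 cells, an embryonic stem cell line from the mouse, that stably expressed a short hairpin RNA against Pcl2 and came from 1 clone. The mismatch control group held 3 arrays of R1 cells stably expressing a mismatch version of the hairpin. Both were labelled undifferentiated, and the labels' growth protocol describes a medium with serum and leukaemia inhibitory factor, and a selection medium with G418. The labels call the 3 arrays of each group biological replicates, so each p-value reflects how much cultures of these lines varied, and the effect of the hairpin cannot be told apart from that of the clone. RNA was hybridized to the Mouse Genome 430 2.0 array, on which each probe set has a signal in arbitrary units.

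Primitive endoderm is the epithelium that forms on the blastocyst's inner cell mass, facing the cavity, and later gives rise to the visceral and parietal endoderm of the yolk sacs. Fgf4 made by the epiblast acts through Fgfr1, Fgfr2 and the ERK kinases to favour Gata6 over Nanog, after which Pdgfra, Sox17, Gata4 and Sox7 come on in turn. Cultures of embryonic stem cells in serum hold some cells that express these genes, and forced Gata6 or Gata4 turns such cells into an endoderm-like state.

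Of the 9 genes, Cited1 and Dab2 were lower in Pcl2 shRNA cells, and none was higher. Cited1 passed the signal filter through its control arrays alone, so its change is given as a bound. Gata4 and Gata6 had nearly equal signals in both groups. Sox17, Sox7, Cubn and Pdgfra stayed near the background of the array throughout. Hnf4a had higher signals in Pcl2 shRNA cells on its brightest probe set but did not pass the test. Fold changes were fitted with limma to log2(signal + 7), which understates the change of dim genes, in 13095 genes whose mean passed a signal filter. A gene was called at a Benjamini-Hochberg adjusted p under 0.05. Over all 13095 genes, 12.6% were called, with 4.46% called higher and 8.16% called lower. Because the arrays measured RNA of whole cultures, fewer cells of a type and less RNA per cell cannot be told apart.

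Only 5 of the 9 genes (Gata4, Gata6, Hnf4a, Dab2 and Cited1) passed the filter, a mean signal of about 20.2, and the other 4 did not. The highest signal among 27 bacterial control probe sets to which no RNA was added, 20.3, was taken as the background. At or below it on every array were 6 of the 23 probe sets, and 4 were above it on all 6 arrays. Cited1 passed the filter through the control arrays alone, so the share of called genes among the 5 is not a result. At the level of probe sets, 2 of the 8 tested were called, both lower, where 6.83% of all tested probe sets were called lower and 3.61% higher. They were the Cited1 probe set and the brightest of Dab2, so this share is not a result either. Pcl2 shRNA and control signals did not overlap for 7 of the 23 probe sets, with 5 lower and 2 higher in Pcl2 shRNA cells. Over the 34945 probe sets that named 1 gene, 11.8% were lower without overlap and 12.4% were higher.

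**Figure D1:**
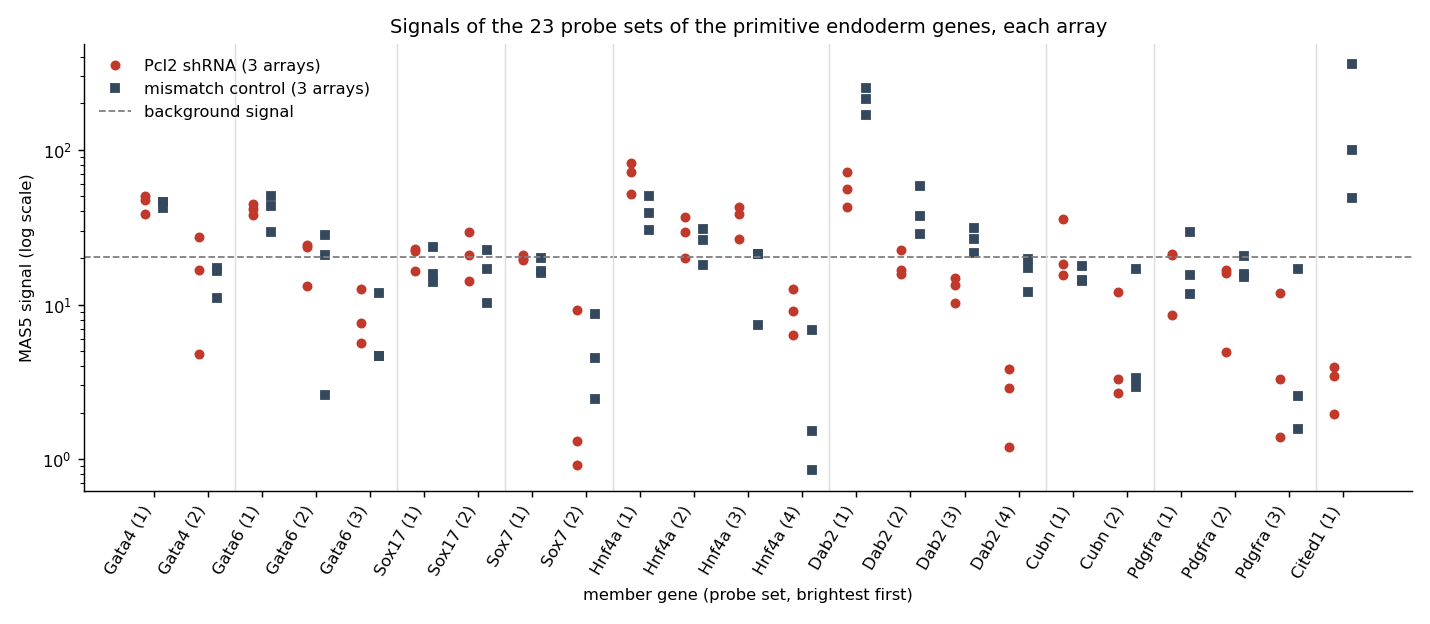
MAS5 signal (vertical axis, log scale, arbitrary units) of each of the 23 probe sets on each of 6 arrays, Pcl2 shRNA arrays as circles and mismatch control arrays as squares, with the background signal of 20.3 dashed. The Pcl2 shRNA arrays lie below all control arrays for all 4 Dab2 probe sets and for Cited1, and most other probe sets lie around the dashed line.

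The knocked-down gene itself was checked first. Mtf2, a partner of Polycomb repressive complex 2, had signals of 1048, 1167 and 870 on Pcl2 shRNA arrays, against 1951, 1513 and 1704 on control arrays. The Pcl2 shRNA mean was 59.7% of the control mean (log2 fold change -0.74 ± 0.17 SE, limma adjusted p = 0.0157). All 3 Pcl2 shRNA signals lay below all 3 control signals. The adjusted p was 0.0519 without control replicate 1 and 0.0574 without Pcl2 shRNA replicate 3. Among its 5 tested probe sets, 4 had log2 fold changes of -0.75 to -0.68, and a dimmer one, overlapping between groups, had 0.25. Averaging the probe sets gave -0.53 (adjusted p = 0.0305). Every array had the same trimmed mean signal of 150.001, and arrays of 1 group correlated at 0.961 to 0.977 against 0.907 to 0.943 between groups. All 10 embryonic stem cell markers examined were above background on all arrays.

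Gata4, a zinc finger factor that drives extraembryonic endoderm genes, had signals of 47.2, 38.3 and 50.2 on Pcl2 shRNA arrays, against 46.4, 42.1 and 46.3 on control arrays. The 2 groups overlapped, with means of 45.2 ± 6.17 in Pcl2 shRNA cells and 44.9 ± 2.42 in control cells (SD, n = 3 each). The log2 fold change was 0.00 ± 0.22 SE, with a 95% interval that corresponds to 0.718 to 1.397 times the control (adjusted p = 0.996). Its other probe set had signals of 4.79, 16.6 and 27.5 on Pcl2 shRNA arrays, against 11.1, 17.1 and 16.4 on control arrays, and passed background on a Pcl2 shRNA array alone.

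Gata6, the zinc finger factor that acts earliest in the lineage, showed the same lack of separation. Its brightest probe set had signals of 44.9, 37.9 and 41.5 on Pcl2 shRNA arrays, against 50.3, 29.3 and 43.7 on control arrays. Control replicates 1 and 2 were the highest and the lowest of the 6, with the Pcl2 shRNA arrays between them. The log2 fold change was 0.03 ± 0.25 SE, with a 95% interval of 0.702 to 1.49 times the control (adjusted p = 0.951). A second probe set had signals of 24.4, 13.3 and 23.5 on Pcl2 shRNA arrays, against 20.9, 2.61 and 28.0 on control arrays. On the third, no array passed background, with 5.61, 7.61 and 12.6 in Pcl2 shRNA cells and 11.8, 4.64 and 4.63 in control cells. The intervals of both Gata factors thus reach to either side of equality.

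Sox17 and Sox7 belong to the same subfamily of HMG-box factors, and both follow Gata6 in the lineage. Sox17 had signals of 22.9, 22.2 and 16.5 on Pcl2 shRNA arrays, against 15.8, 13.9 and 23.7 on control arrays. Its second probe set had 14.3, 29.6 and 20.8 on Pcl2 shRNA arrays, against 17.1, 10.2 and 22.6 on control arrays. Both sets straddled background in each group, and the log2 differences of 0.16 and 0.28 each gave p = 0.5 in a two-sided exact permutation test over the arrays. With 3 arrays against 3 that test cannot go below 0.1.

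Sox7 was as dim, at 21.0, 19.5 and 19.6 on Pcl2 shRNA arrays, against 16.1, 16.4 and 20.1 on control arrays. A single Pcl2 shRNA array passed background, and the log2 difference was 0.14 (two-sided exact permutation p = 0.3). On the second Sox7 probe set, every array was below background, at 1.32, 9.22 and 0.913 in Pcl2 shRNA cells and 8.71, 4.53 and 2.45 in control cells. For either Sox gene, no difference was detectable at these signals.

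Hnf4a, a nuclear receptor of visceral endoderm and later of liver, had 4 probe sets. The brightest had signals of 82.6, 71.8 and 52.2 on Pcl2 shRNA arrays, against 39.1, 30.2 and 50.1 on control arrays. The groups did not overlap, though the lowest Pcl2 shRNA array and the highest control array were close. The log2 fold change was 0.70 ± 0.25 SE, with a 95% interval of 1.10 to 2.40 times the control, and the unadjusted p of 0.0203 became an adjusted p of 0.105. A second probe set separated the groups as well, with 38.3, 26.6 and 42.8 on Pcl2 shRNA arrays, against 21.4, 7.35 and 21.2 on control arrays. Its log2 fold change of 0.91 ± 0.33 SE had an adjusted p of 0.112, or 0.0377 with the replicate number as a block. This second probe set passed the signal filter through the Pcl2 shRNA arrays, since its control mean of 16.6 lay under the filter. Its fitted change is therefore not an exact fold, and its call with the block is not a result. Both the brightest and the second probe set carry the suffix of shared probe sets that can span genes. A probe set with no such suffix overlapped between groups, at 29.6, 36.7 and 20 on Pcl2 shRNA arrays and 26.3, 18.0 and 30.9 on control arrays. Its log2 fold change was 0.15, with an adjusted p of 0.792 in the fit of all probe sets. The last probe set stayed below background on every array, at 12.5, 9.08 and 6.33 in Pcl2 shRNA cells and 1.53, 6.87 and 0.846 in control cells.

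Dab2 encodes a clathrin adaptor that carries the receptors megalin and cubilin into the cell, and it marks primitive, visceral and parietal endoderm. Its brightest probe set had signals of 71.5, 56.2 and 42.4 on Pcl2 shRNA arrays, against 212, 169 and 252 on control arrays. Every Pcl2 shRNA array was far below the lowest control array, and all 6 were above background. The mean was 56.7 ± 14.5 in Pcl2 shRNA cells and 211 ± 41.5 in control cells (SD, n = 3 each), or 26.8% of the control. The log2 fold change was -1.79 ± 0.24 SE, with a 95% interval of -2.31 to -1.26 (limma adjusted p = 0.00106).

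The other 3 Dab2 probe sets also had lower signals in Pcl2 shRNA cells on every array. The second had 16.7, 15.9 and 22.5 on Pcl2 shRNA arrays, against 37.4, 28.6 and 58.3 on control arrays. Its log2 fold change of -0.90 had an adjusted p of 0.0755 in the fit of all probe sets, or 0.0330 with the replicate block. The adjusted p was 0.0433 with quantile normalization, 0.0440 with median centring, 0.0332 with array weights and 0.0490 without control replicate 2. This probe set passed the signal filter through the control arrays, since its Pcl2 shRNA mean of 18.35 lay under the filter. Its calls in these settings are therefore not a result. The third had 14.9, 10.3 and 13.3 on Pcl2 shRNA arrays, all below background, against 26.7, 21.6 and 31.2 on control arrays, which makes it at least 1.29-fold lower. The fourth was below background on all arrays, at 3.86, 2.87 and 1.203 in Pcl2 shRNA cells and 12.1, 19.9 and 17.1 in control cells, so no fold is given. The brightest probe set is one shared between transcripts of Dab2. Without shared probe sets of any kind Dab2 rested on the second, which was not called (log2 fold change -0.90, adjusted p = 0.0676 over genes).

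Cubn encodes cubilin, the receptor that Dab2 helps to internalize in visceral endoderm. It had signals of 35.6, 18.4 and 15.6 on Pcl2 shRNA arrays, against 14.3, 14.2 and 17.7 on control arrays. Pcl2 shRNA replicate 1 alone was above background, and the groups overlapped (log2 difference 0.38, two-sided exact permutation p = 0.2). The second Cubn probe set was below background on all arrays, at 12.03, 3.29 and 2.67 in Pcl2 shRNA cells and 3.34, 16.9 and 2.91 in control cells.

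Pdgfra, the receptor for platelet-derived growth factor that marks the earliest primitive endoderm precursors, was likewise near background. Its signals were 20.9, 8.57 and 21.2 on Pcl2 shRNA arrays, against 29.3, 11.7 and 15.6 on control arrays. The other probe sets reached at most 16.7 on Pcl2 shRNA arrays and 20.7 on control arrays. Pcl2 shRNA and control arrays overlapped on all 3 Pdgfra probe sets, with log2 differences of -0.11, -0.37 and -0.09. In a fit with no signal filter, the adjusted p was 0.543 for Cubn, 0.908 for Pdgfra, 0.796 for Sox17 and 0.792 for Sox7.

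Cited1, a co-regulator that binds CBP and p300 and is expressed in extraembryonic tissues of the mouse, had the largest fitted change of the 9 genes. The signals were 3.45, 1.95 and 3.94 on Pcl2 shRNA arrays, against 99.2, 48.7 and 358 on control arrays. All 3 Pcl2 shRNA arrays were below background and all 3 control arrays above it. The fold is therefore a bound, at least 5.92-fold lower in Pcl2 shRNA cells. The fitted log2 fold change was -3.68 ± 0.55 SE (limma adjusted p = 0.00198). Since Cited1 passed the signal filter through the control arrays alone, that p is not read as a result. In the limma fit with no signal filter, the adjusted p was 0.00639. The control arrays spread 7.36-fold between the lowest and the highest, a mean of 169 ± 166 in control cells against 3.11 ± 1.04 in Pcl2 shRNA cells (SD, n = 3 each). Without control replicate 3, the brightest, the bound was 3.43-fold and Cited1 no longer passed the signal filter. Without control replicate 2, the dimmest, it was 9.29-fold. A single probe set measured Cited1, so no second probe set could be set beside it.

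**Figure D2:**
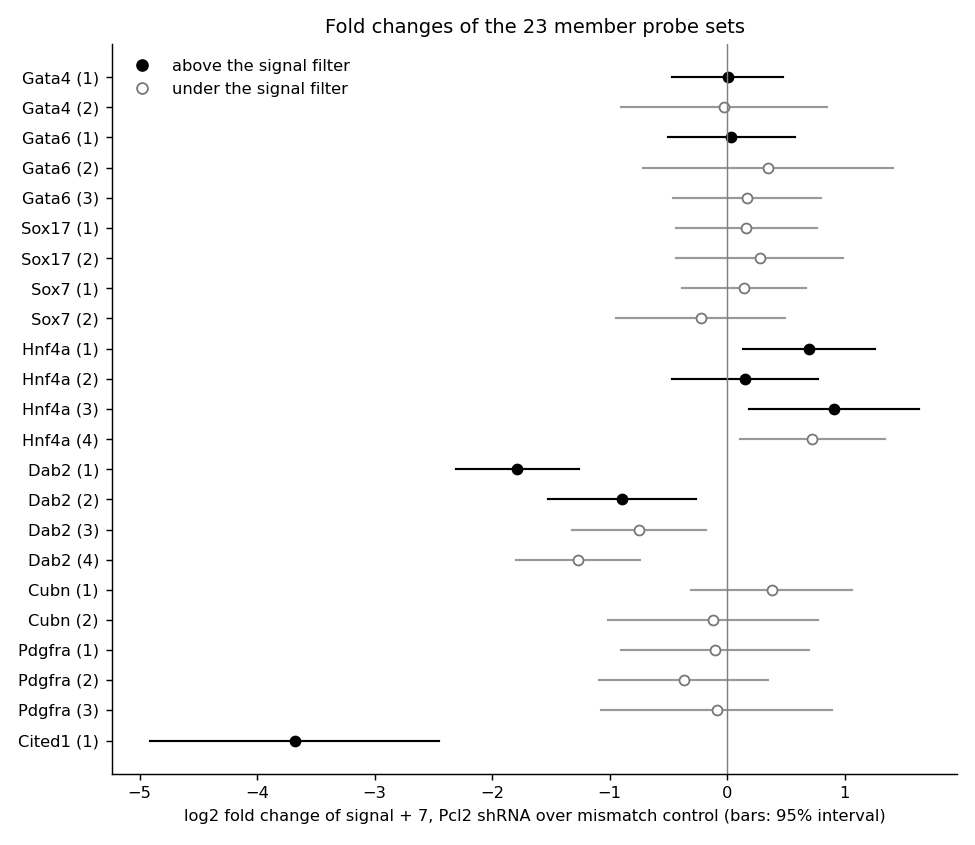
Log2 fold change of signal + 7, Pcl2 shRNA over mismatch control (horizontal axis), with its 95% interval for each of the 23 probe sets, filled where the probe set passed the signal filter. Cited1 and the 4 Dab2 probe sets lie left of 0 with intervals that do not reach it. Of the other 18, the intervals of 3 Hnf4a probe sets lie right of 0 and the remaining ones cross it.

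The promoter windows of the changed genes Dab2 and Cited1 are shown with that of Hnf4a, since the 9 genes include 2 factors that bind GATA motifs and since Pcl2 belongs to a protein family that binds CpG-rich DNA. RefSeq promoter windows (GRCm38.p6, 250 bases before to 50 after the start, printed on the gene's strand) were matched for 5 of the 9 genes. They comprised 3 starts of Cited1, 2 each of Dab2 and Hnf4a, and 1 each of Cubn and Pdgfra. Capitals mark the GATA factor motif AGATAA and the TATA box sequence TATAAA, found on either strand, and no matches overlap.
Dab2, chr15:6299539-6299838, plus strand: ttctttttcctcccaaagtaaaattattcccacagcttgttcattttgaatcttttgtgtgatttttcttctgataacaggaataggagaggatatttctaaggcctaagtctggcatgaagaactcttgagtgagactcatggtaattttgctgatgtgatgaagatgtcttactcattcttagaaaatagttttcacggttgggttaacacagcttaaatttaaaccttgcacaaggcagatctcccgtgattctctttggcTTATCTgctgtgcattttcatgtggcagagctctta
Dab2, chr15:6386498-6386797, plus strand: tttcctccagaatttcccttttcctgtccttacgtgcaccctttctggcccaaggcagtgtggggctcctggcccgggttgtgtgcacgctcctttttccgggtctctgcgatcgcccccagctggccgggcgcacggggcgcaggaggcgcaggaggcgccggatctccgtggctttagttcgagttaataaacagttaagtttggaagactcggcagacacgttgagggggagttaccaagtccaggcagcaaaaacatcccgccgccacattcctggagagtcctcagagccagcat
Cited1, chrX:102252132-102252431, minus strand: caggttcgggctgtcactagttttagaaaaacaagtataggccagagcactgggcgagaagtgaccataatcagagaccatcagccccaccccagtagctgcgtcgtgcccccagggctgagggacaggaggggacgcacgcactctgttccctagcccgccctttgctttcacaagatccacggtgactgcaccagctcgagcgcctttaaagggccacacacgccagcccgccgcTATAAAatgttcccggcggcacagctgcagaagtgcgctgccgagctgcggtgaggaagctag
Cited1, chrX:102250727-102251026, minus strand: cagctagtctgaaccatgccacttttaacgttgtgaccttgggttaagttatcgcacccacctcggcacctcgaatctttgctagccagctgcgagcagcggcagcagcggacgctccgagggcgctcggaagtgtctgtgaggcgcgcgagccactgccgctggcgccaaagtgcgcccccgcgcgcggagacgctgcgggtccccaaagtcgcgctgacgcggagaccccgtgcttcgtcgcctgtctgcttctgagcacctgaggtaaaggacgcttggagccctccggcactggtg
Hnf4a, chr2:163506607-163506906, plus strand: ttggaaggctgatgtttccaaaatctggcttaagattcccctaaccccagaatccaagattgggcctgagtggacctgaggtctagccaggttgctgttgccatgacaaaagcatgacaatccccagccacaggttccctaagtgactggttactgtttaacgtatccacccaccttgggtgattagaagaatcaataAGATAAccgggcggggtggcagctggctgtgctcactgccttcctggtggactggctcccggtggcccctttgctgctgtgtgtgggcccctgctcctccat

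The 2 Dab2 starts differed in CpG content. The upstream window held 2 CpG dinucleotides and 1 AGATAA, read on the opposite strand as TTATCT, beginning 14 bases past the start. The downstream window held 19 CpG and neither motif. Over 32817 windows the median was 7 CpG, and 11.2% held AGATAA. The 3 Cited1 windows held 18, 14 and 32 CpG. Of the 2 with a TATAAA, the printed one has it beginning 13 bases before the start, and 13.6% of all windows held that motif. Hnf4a had AGATAA beginning 52 bases before its first start and none in its second window, with 4 CpG in each. The Cubn and Pdgfra windows held 5 CpG each and neither motif. A match in these letters is a description of the window and not a binding site.

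Across the 6 arrays, the 3 genes whose log2 signals followed Dab2 most closely were Ncs1, Rnf214 and Ddr1, with Pearson correlations of 0.998 to 0.999. For Cited1 they were Camsap2, Fgd5 and Frmd6, each at 0.998. Ddr1, a collagen receptor kinase, had signals of 294, 208 and 164 on Pcl2 shRNA arrays, against 1269, 804 and 1417 on control arrays. These correlations are descriptive, over 6 arrays that share 2 groups, and any gene lower in Pcl2 shRNA cells tends to score high. Among the control arrays, replicate 2 was lowest and replicate 3 highest for Cited1 and for 3 of the 4 Dab2 probe sets.

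Genes tied to the 9 by function were then read from lists. Of 15 binding partners and co-receptors on the array, 14 were tested and 1, Lrp2, was called (lower), with a median log2 fold change of -0.19, beside 0.02 over all genes tested. The number called depended on the fit, at 5 with the replicate block and 3 without Pcl2 shRNA replicate 3. With the block, Lrp2, Lrpap1 and Zfpm1 were lower and Lrp1 and Tfap2c higher. Lrp2 encodes megalin, which Dab2 binds and with which cubilin works in endocytosis. It had 90.6, 84.4 and 60.6 on Pcl2 shRNA arrays, against 132, 219 and 421 on control arrays (log2 fold change -1.49 ± 0.35 SE, adjusted p = 0.0198). The groups did not overlap, but the adjusted p was 0.0524 without Pcl2 shRNA replicate 2 and 0.0615 without replicate 3, and of its other probe sets one had -1.44 and one 0.12. Lrpap1, the chaperone of megalin, had a log2 fold change of -0.67 (adjusted p = 0.0517, or 0.00324 with the block), and Amn, which brings cubilin to the surface, had -0.40 (adjusted p = 0.297).

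Of 10 paralogues of the 9 genes, 7 were tested and 1, Cited2, was lower, with a list median of -0.31. With the replicate block 3 were lower, and 2 were called without control replicate 2. Cited2 had 864, 1026 and 927 on Pcl2 shRNA arrays, against 2982, 1919 and 4675 on control arrays, a log2 difference of -1.67 ± 0.27 (SE) that passed the test (adjusted p = 0.00313). As for Cited1, control replicate 3 was the highest and control replicate 2 the lowest of the controls. Cited4 had -1.06 and Gata2 -0.60, neither called without the block (adjusted p = 0.091 and 0.13) and both called with it (0.0179 and 0.041). Only 1 of the 3 Pcl2 shRNA arrays had Cited4 above background. Gata3 and Hnf4g were at or below background on all arrays.

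Of 11 genes of the FGF, ERK and PDGF signals on the array, 1 was higher and 2 were lower, with a median of -0.02. Fgf4, the ligand that induces primitive endoderm, was higher (log2 fold change 1.34 ± 0.20 SE, adjusted p = 0.0018), with 1002, 1256 and 1613 on Pcl2 shRNA arrays, against 483, 574 and 437 on control arrays. Fgfr1, a receptor of Fgf4, had 380, 327 and 336 on Pcl2 shRNA arrays, against 657, 448 and 738 on control arrays. It fell by 0.78 ± 0.20 (SE, adjusted p = 0.0291), a call lost when any array other than control replicate 2 was left out. The other probe sets of Fgfr1 had -1.28 and -0.49, and averaging its probe sets gave -0.85 (adjusted p = 0.00486). Without shared probe sets of any kind Fgfr1 had -0.49 and was not called (adjusted p = 0.165). The phosphatase Ptpn11 fell by 0.79 ± 0.15 on its brightest probe set (SE, adjusted p = 0.0071), whereas its other probe sets had -0.09 and 0.00. Fgfr2 had -0.31 (adjusted p = 0.298), and Pdgfa, a ligand of Pdgfra, had -0.02 (adjusted p = 0.970).

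**Figure D3:**
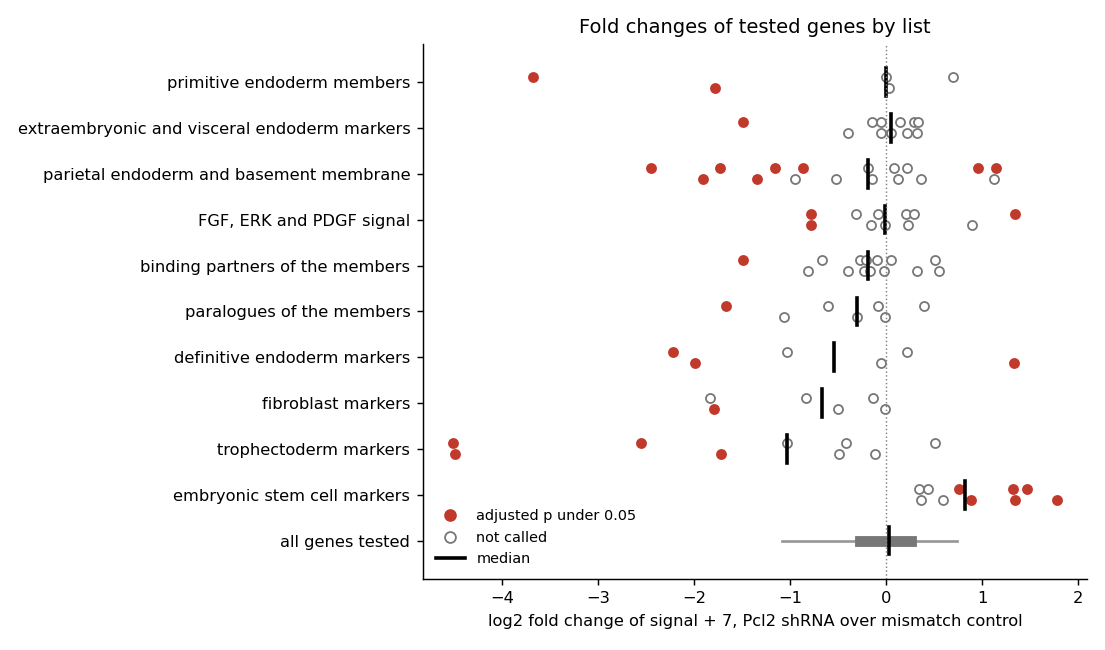
Log2 fold change, Pcl2 shRNA over mismatch control (horizontal axis), of each tested gene in the 9 primitive endoderm genes and 9 companion lists, filled where the adjusted p was under 0.05, with list medians as black bars. The lowest row gives the median, quartiles and 5th to 95th percentiles of all 13095 genes. Cited1 and Dab2 stand left of the other 3 tested primitive endoderm genes, and trophectoderm markers reach furthest left.

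Later endoderm markers were read by kind. Of 20 extraembryonic and visceral endoderm markers on the array, 11 were tested, and Lrp2 alone was called, with a list median of 0.05. Afp, Apoa1, Apoa4 and Ttr, secreted products of visceral endoderm, were at or below background on all 6 arrays. The list's summed signal overlapped between groups, at 3078 to 6065 in Pcl2 shRNA cells and 2659 to 5132 in control cells. Apoe and Lefty1 made up most of this sum, at 903 to 2755 and 948 to 2738 over the 6 arrays. Of 17 genes of parietal endoderm and basement membrane, all tested, 6 were lower and 2 higher, with a median of -0.19. Their summed signal was 6118 to 6343 in Pcl2 shRNA cells and 7618 to 10960 in control cells. Sparc and Serpinh1 made up most of this gap, with means of 975 and 226 in Pcl2 shRNA cells against 2520 and 1367 in control cells. The 2 higher genes, Nid1 and Lama1, went the other way, with means of 931.5 and 148 against 418 and 72.6.

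The lower basement membrane genes were the collagen IV chains Col4a1 (-1.15) and Col4a2 (-1.73), the collagen chaperone Serpinh1 (-2.45), the matrix glycoprotein Sparc (-1.35), the laminin chain Lamb1 (-0.86) and the activin-binding protein Fst (-1.91), with adjusted p from 0.000901 to 0.0184. Col4a1 and Fst lay outside the rule for named genes and were added after their values were seen. Fst was not called in 4 of the 6 fits that left out 1 array, with adjusted p from 0.0523 to 0.0662. Serpinh1 had 209, 198 and 271 on Pcl2 shRNA arrays, against 1298, 738 and 2066 on control arrays. Sparc had another probe set at 0.30. The higher genes were Lama1, the laminin chain of the earliest basement membranes, and Nid1, the nidogen that links laminin to collagen IV. Lama1 rose by 0.96 ± 0.18 (SE, adjusted p = 0.00731), with 152, 160 and 132 on Pcl2 shRNA arrays, against 75.7, 71.8 and 70.1 on control arrays. Nid1 rose by 1.15 ± 0.18 (SE, adjusted p = 0.00265). Members of 1 laminin and collagen network thus moved in both directions.

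Some markers listed for other cell types were lower in Pcl2 shRNA cells as well, while others were not called or were higher. Of 11 trophectoderm markers, 9 were tested and 4 were lower, with none higher and a median of -1.03. Krt8 and Krt18, the keratins of simple epithelia, had log2 fold changes of -4.49 and -4.51, Krt7 had -1.72 and the factor Cdx2 was at least 3.67-fold lower. Keratins of simple epithelia are not particular to trophectoderm, and primitive endoderm is an epithelium as well. Like Cited1, Cdx2 was below background on all Pcl2 shRNA arrays and passed the filter through the control arrays, and Krt7 was above background on 2 of the 3 Pcl2 shRNA arrays, so the share called is not a result. Leaving out control replicate 2 made the Cdx2 bound 5.86-fold. Leaving out control replicate 1 made it 2.63-fold, and Cdx2 then no longer passed the filter and 2 of the markers were called. The list's summed signal was 1184 to 1607 in Pcl2 shRNA cells and 5091 to 9618 in control cells, and Gata3 was at or below background on all arrays. Krt8 and Krt18 made up most of the control sums, at 2386 to 4329 and 1800 to 4099 on control arrays. On Pcl2 shRNA arrays they had 129 to 165 and 106 to 147.5, so the gap in the sum rests mainly on these 2 keratins. The Krt7 call (adjusted p = 0.0242) was lost in 5 settings, among them the fit without control replicate 1.

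Of 10 definitive endoderm markers, 6 were tested, 2 were lower and 1 was higher, with a median of -0.54. Cldn6 fell by 1.99 (adjusted p = 7.2e-05), Mixl1 was at least 3.64-fold lower and Kit rose by 1.33 (adjusted p = 0.00584), while Gsc was at or below background on all arrays. Mixl1 was below background on all Pcl2 shRNA arrays and passed the filter through the control arrays, so the share called is not a result. The Mixl1 bound was 2.53-fold without control replicate 1. The list's summed signal was 1102 to 1708 in Pcl2 shRNA cells and 2100 to 2454 in control cells. Cldn6 alone made up most of the control sums, at 1487 to 1706 on control arrays against 352 to 464 on Pcl2 shRNA arrays. The gap in the sum thus rests mainly on 1 gene. Of 10 fibroblast markers, 6 were tested and 1, Twist2, was called (adjusted p = 0.0122), with a list median of -0.67. Twist2 had 3.70, 22.5 and 18.9 on Pcl2 shRNA arrays, against 84.4, 52.8 and 55.3 on control arrays. It was above background on 1 of the 3 Pcl2 shRNA arrays and passed the filter through the control arrays, so its fitted -1.79 is not an exact fold. With the replicate block 3 were lower, Twist2, Col1a1 and Col3a1, and 2 were called without Pcl2 shRNA replicate 1. The fibroblast sum overlapped, at 306 to 601 in Pcl2 shRNA cells and 435 to 1062 in control cells, and Dcn, Fap and Lum were at or below background on all arrays. The part of these other cell types in the Dab2 and Cited1 signals was not tested.

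Embryonic stem cell markers ran the other way. Of 10, all tested, 6 were higher and none lower, with a median of 0.82. They were Klf4 (1.78), Esrrb (1.47), Fgf4 (1.34), Zfp42 (1.32), Tdgf1 (0.89) and Sox2 (0.76). Fgf4 is also the ligand counted among the FGF signals above. Sox2 was not called without control replicate 1, Pcl2 shRNA replicate 2 or Pcl2 shRNA replicate 3. Their summed signal was 37640 to 49120 in Pcl2 shRNA cells and 22490 to 28300 in control cells. Nanog had 0.59 (adjusted p = 0.0888, or 0.0107 with the block) and Pou5f1 0.36 (adjusted p = 0.334).

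**Figure D4:**
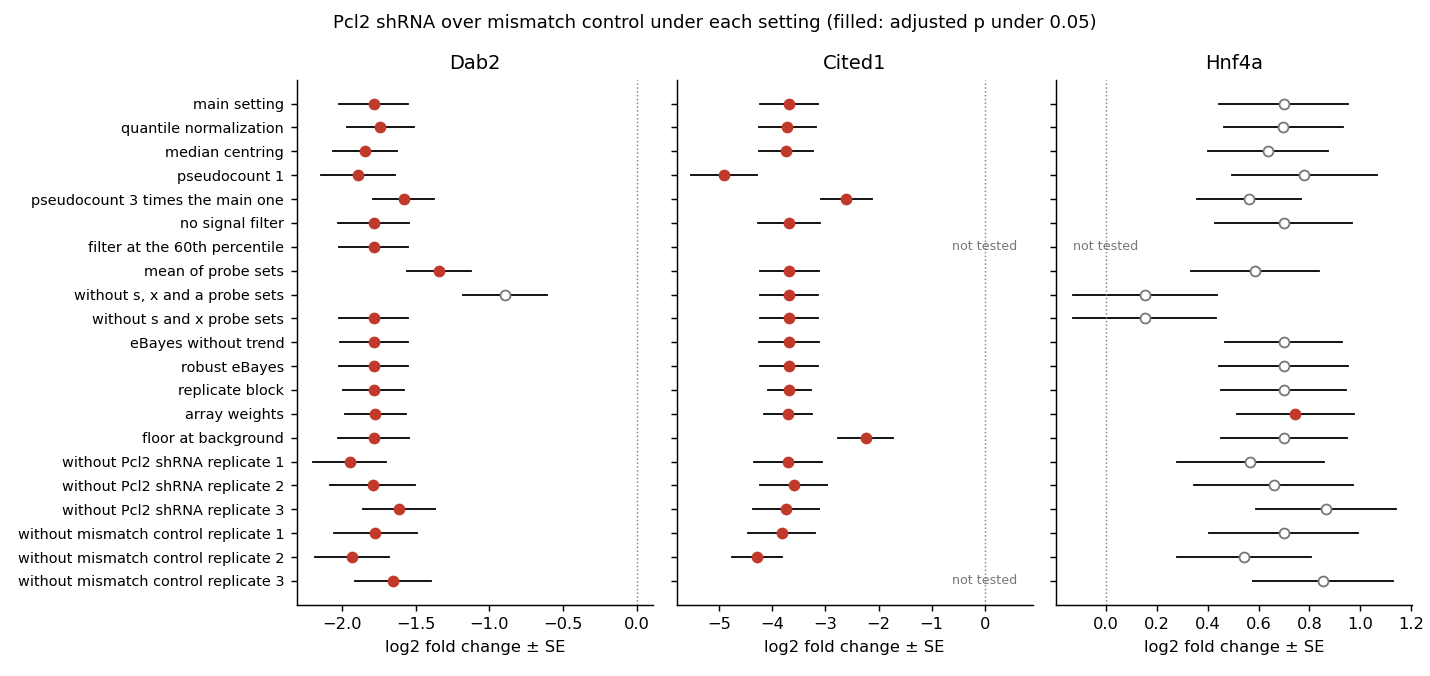
Log2 fold change ± SE, Pcl2 shRNA over mismatch control (horizontal axes), of Dab2, Cited1 and Hnf4a under the main setting and each alternative, filled where the adjusted p was under 0.05. Dab2 was not called without shared probe sets (-0.90), Cited1 was not tested in 2 settings, and Hnf4a was called with array weights alone.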

How the data were processed

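Gene expression was measured in 6 cultures on Affymetrix arrays, 3 per group. The deposited table holds intensity values, which per the labels came from GCOS 1.4 and per the submitters' processing notes from MAS5. Its trimmed mean (2% at each end) was 150.001 on every array, so the authors' values are scaled and were not normalized again. MAS5 subtracts mismatch probes, which makes low signals noisy. Arrays give no counts, so their number limits the precision.

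Probe sets were named from the platform annotation (34945 name 1 gene, 932 several, 9160 none, 64 are controls). Signals were transformed as log2(signal + 7), with 7 the 20th percentile of all values. Each gene was represented by its brightest probe set (18193 genes), and 13095 genes with a mean log2 signal at or above the 40th percentile were fitted with limma 3.58.1 in R 4.3.3 (eBayes with trend, Benjamini-Hochberg adjustment over all of them). Of these, 1652 were called, 584 higher and 1068 lower. Genes under the filter were compared by two-sided exact permutation over 20 relabellings. The fit was tested on simulated data.

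The labels number the samples but do not say whether equal numbers share a culture or day. Deviations from the group means correlated at 0.25 to 0.397 for the same number and at -0.382 to -0.001 for other numbers, so a replicate block was fitted as an alternative. Named by rule were the 9 genes, Mtf2, the called list genes with the smallest p (at most 6 per list), and the 3 genes most like each called member. The list genes not called in the main fit and Col4a1 and Fst lie outside it and were named after their values were seen. The 9 genes and the lists were chosen with earlier results of these data known. Alternatives covered normalization, pseudocount, filter, probe set choice, eBayes options, array weights, a floor at background and each array left out.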

Additional observations from a re-analysis of the deposited data

How the results depend on the processing

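Dab2 and Cited1 kept their direction wherever they were fitted. Of the 2 genes called, 1 remained at a filter on the 60th percentile (Dab2, since Cited1, Gata4, Gata6 and Hnf4a were then not tested) and 1 without shared probe sets (Cited1). With single arrays left out 1 to 2 were called, 1 without control replicate 3, where Cited1 was under the filter. Leaving out only the shared probe sets that can span genes, an alternative added after seeing the data, kept Dab2 at -1.79. Hnf4a then had 0.15 (adjusted p = 0.792). Averaging the Dab2 probe sets gave -1.34. Cited1 had -4.92 with a pseudocount of 1, -2.61 with 21 and -2.24 with a floor at background. Hnf4a was called with array weights alone (0.75, adjusted p = 0.0487). Probe sets called among the 23 numbered 2, 4 with the replicate block, 1 at the 60th percentile filter and 1 to 3 with single arrays left out. With quantile normalization, median centring, array weights or no signal filter, 3 were called. The Gata4 fold change turned to -0.0298 with quantile normalization, -0.0571 with median centring and -0.10 with array weights, and ran -0.0662 to 0.10 with single arrays left out. Gata6 turned to -0.0066, -0.0259 and -0.0579 in those settings, and ran -0.16 to 0.17. Over all genes 1652 were called, 3112 with the replicate block, which rests on the pairing of replicate numbers, and 979 to 1598 with single arrays left out. The block changed no other call among the 9 genes, and moved the calls over the companion lists to 38, against 26. The signal over background limits Sox17, Sox7, Cubn and Pdgfra. The causes of these shifts were not tested.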

Other observations

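Among the 1068 genes called lower in Pcl2 shRNA cells, control replicate 2 was the lowest control array in 593 (55.5%) and control replicate 3 the highest in 576 (53.9%). Over all genes tested, replicate 2 was lowest in 5075 (38.8%) and replicate 3 highest in 4988 (38.1%). The full order of replicate 3 above 1 above 2 held in 380 of the 1068 (35.6%), and in 2766 of all 13095 genes tested (21.1%).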
